A study of Homo sapiens with 24 samples.

Results

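The genes described here were MAT2A, MAT2B and METTL16, taken by symbol from the transcript and intron tables: 3 of 62754 genes, with 49 of 252894 transcripts and 32 of 233113 introns. MAT2A had 6 of these transcripts and 6 of these introns, MAT2B 33 and 16, and METTL16 10 and 10. Their RNA was measured in RKO, an established cell line from a human colon carcinoma. All cells carried a Cas9 gene switched on by doxycycline and a constitutive guide RNA, which cut either ERH (sgERH) or, as the control, the safe-harbour locus AAVS1 (sgAAVS1), and all received 100 ng/mL doxycycline for 5 days. They were then given cycloheximide (CHX) at 25 µg/mL, which blocks translation and thereby also nonsense-mediated decay, or the solvent DMSO, for 4 h, and were split into a nuclear and a cytoplasmic fraction. The 8 groups of fraction, guide and treatment held 3 libraries of polyadenylated RNA each, 24 in all. The labels call the 3 libraries biological replicates, and nothing states that they came from separate cultures, so the p-values measure the spread between these libraries. The 3 genes were chosen with earlier results of these data known, so their p-values are given as a measure of size against that spread and not as independent evidence.

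MAT2A encodes the catalytic subunit of the methionine adenosyltransferase that makes S-adenosylmethionine (SAM), the methyl donor of most cellular methylation, outside the liver. MAT2B encodes a regulatory subunit that binds it. METTL16 is an RNA methyltransferase that modifies U6 snRNA and hairpins in the MAT2A 3′ untranslated region. It is known as a sensor of SAM: when SAM is scarce it stays bound to the hairpins and the last MAT2A intron is spliced, and when SAM is plentiful the mRNA is decayed or kept in the nucleus with that intron.

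MAT2A (ENSG00000168906) lies at chr2:85539168-85545281 on the plus strand of GRCh38, and its canonical transcript ENST00000306434 has 9 exons. Exon 9 held 6 copies of the METTL16 recognition nonamer, searched as TACAGAGAA and TACAGAAAA on the sense strand only, and all 6 lay after the stop codon. Each is shown with 10 bases on either side because these are the elements through which METTL16 is known to act on MAT2A, with the nonamer in capitals and the position of the nonamer before it.
Site 1, chr2:85543812-85543820: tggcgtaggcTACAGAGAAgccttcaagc
Site 2, chr2:85544599-85544607: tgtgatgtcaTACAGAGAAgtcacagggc
Site 3, chr2:85544784-85544792: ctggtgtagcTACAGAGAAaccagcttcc
Site 4, chr2:85544899-85544907: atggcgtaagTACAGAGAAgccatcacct
Site 5, chr2:85545014-85545022: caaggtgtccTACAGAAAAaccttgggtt
Site 6, chr2:85545122-85545130: gctggtgtggTACAGAGAAgccagcttgt
The first site began 40 bases after the stop codon and the last 1350 bases after it. In the last 1509 bases of 15680 canonical protein-coding transcripts of at least that length, 543 (3.46%) held at least 1 such nonamer, and 1 transcript (0.00638%), that of MAT2A itself, held 6. The nonamer was searched because of its known role in MAT2A, so these counts describe the sequence and test nothing. Binding was not measured.

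The known mechanism acts on the last intron, intron 8, and introns 6 and 7 come before it. Intron 6 (chr2:85542374-85542564, 191 bases, 34.0% GC), intron 7 (chr2:85542748-85542900, 153 bases, 31.4% GC) and intron 8, the last (chr2:85543035-85543669, 635 bases, 38.6% GC), all lie within the coding sequence. Their donor sites are shown as the last bases of the exon and the first of the intron, and their acceptor sites as the end of the intron and the start of the exon, with the invariant GT and AG in capitals.
Intron 6 donor: cagGTaatg
Intron 6 acceptor: cttaaatcctgtaatttcAGggt
Intron 7 donor: cagGTatac
Intron 7 acceptor: cgacatttgaatccttttAGgtc
Intron 8 donor: cagGTaaag
Intron 8 acceptor: tacggacttgtatattccAGgga
Read in frame from the upstream exon, the first stop codon ended at base 36 of intron 6, base 30 of intron 7 and base 4 of intron 8. Introns 3, 5 and 8 were not analysed here as introns. The last intron is followed instead through 2 annotated transcripts that reach into it: ENST00000409017, whose exons cover 574 of its 635 bases (90.4%), and ENST00000481412, which covers 184 of them (29.0%) and all 191 bases of intron 6. Both begin within intron 1, where their exons cover 359 and 69 bases, so their levels do not measure the last intron alone.

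Libraries held 27.8 to 79.5 M counts (1 M = 1e+06). The nuclear RNA MALAT1 ran from 126 to 257 TPM (transcripts per M, corrected for length) in the cytoplasm and from 4092 to 8554 TPM in the nucleus. The summed level of the nuclear RNAs MALAT1, NEAT1 and KCNQ1OT1 was higher in sgERH than in control cytoplasm, at 278 to 357 against 171 TPM with DMSO and 318 to 357 against 185 to 203 TPM with CHX. Of 8 markers of colon epithelium, KRT8 (39.8 TPM or more) and KRT18 (121 TPM or more) were high in every library. EPCAM (0.986 to 12.9 TPM) and CDX2 (0.952 to 12.4 TPM) were low, KRT20 was at 0 in all, and the medians of CDH1, LGR5 and VIL1 were 0.059 TPM or less in either fraction. The targeted gene ERH was 137, 158 and 152 CPM (counts per M, scaled within a fraction) in control cytoplasm with DMSO and 72.9, 86.9 and 59.4 CPM with sgERH, a log2 change of -1.03 ± 0.11 (SE, adjusted p = 1.12e-06) that was -0.90 to -0.99 without any 1 of 3 of the 6 libraries. The ERH change was -0.72 ± 0.11 in cytoplasm with CHX (adjusted p = 6.15e-05) and -0.48 ± 0.16 in nuclei with DMSO (adjusted p = 0.0267). The groups did not overlap in either. In nuclei with CHX ERH was 15.6, 14.2 and 14.1 CPM against 11.9, 16.8 and 11.8 CPM, and the groups overlapped. Reads across exon-intron boundaries per 100 spliced reads, a measure of retention over the whole library, were 38.8 to 40.6 and 38.0 to 39.2 in control nuclei with DMSO and CHX, and 32.3 to 32.4 and 24.5 to 27.1 in sgERH nuclei. In all cytoplasmic libraries they were 7.12 to 7.51.

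CHX lowered MAT2A in the cytoplasm of both guides, and lowered it less in sgERH cells. In control cells MAT2A was 521, 539 and 586 CPM with DMSO and 42.8, 43.9 and 44.6 CPM with CHX. In sgERH cells it was 325, 341 and 356 CPM with DMSO and 81.0, 108 and 74.7 CPM with CHX. None of the 4 groups overlapped another, and the order of the guides with DMSO was turned around with CHX. The log2 fold change with CHX was -3.65 ± 0.11 in control cells (adjusted p = 5.57e-14), lower than that of all but 0.112% of genes. A gene was called where its adjusted p did not exceed 0.05 and its log2 change was 1 or more in size, and 19.9% of genes were called there. In sgERH cells the change was -1.95 ± 0.10 (adjusted p = 1.95e-10), where 9.03% of genes were called. The difference between the guides in the response to CHX was 1.70 ± 0.14 on the log2 scale (adjusted p = 3.34e-07), where 3.63% of genes were called. In bulk RNA, fewer cells with a transcript and less of it per cell cannot be told apart.

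The effect of sgERH on cytoplasmic MAT2A thus had opposite signs in the 2 treatments. With DMSO the group mean was 341 ± 15.4 CPM in sgERH and 549 ± 33.6 CPM in control cells (SD, n = 3), a log2 change of -0.69 ± 0.10 (adjusted p = 1.42e-05) that stayed under the limit for a call, against 11.5% of genes called. With CHX it was 88.1 ± 17.9 CPM in sgERH and 43.8 ± 0.887 CPM in control cells, a log2 change of 1.01 ± 0.10 (adjusted p = 5.03e-07), just past that limit, where 7.22% of genes were called. It fell short of the limit with RLE scaling and with DESeq2 (0.998 in both), without sgERH replicate 2 (0.83) and without control replicate 1 (0.99).

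**Figure D1:**
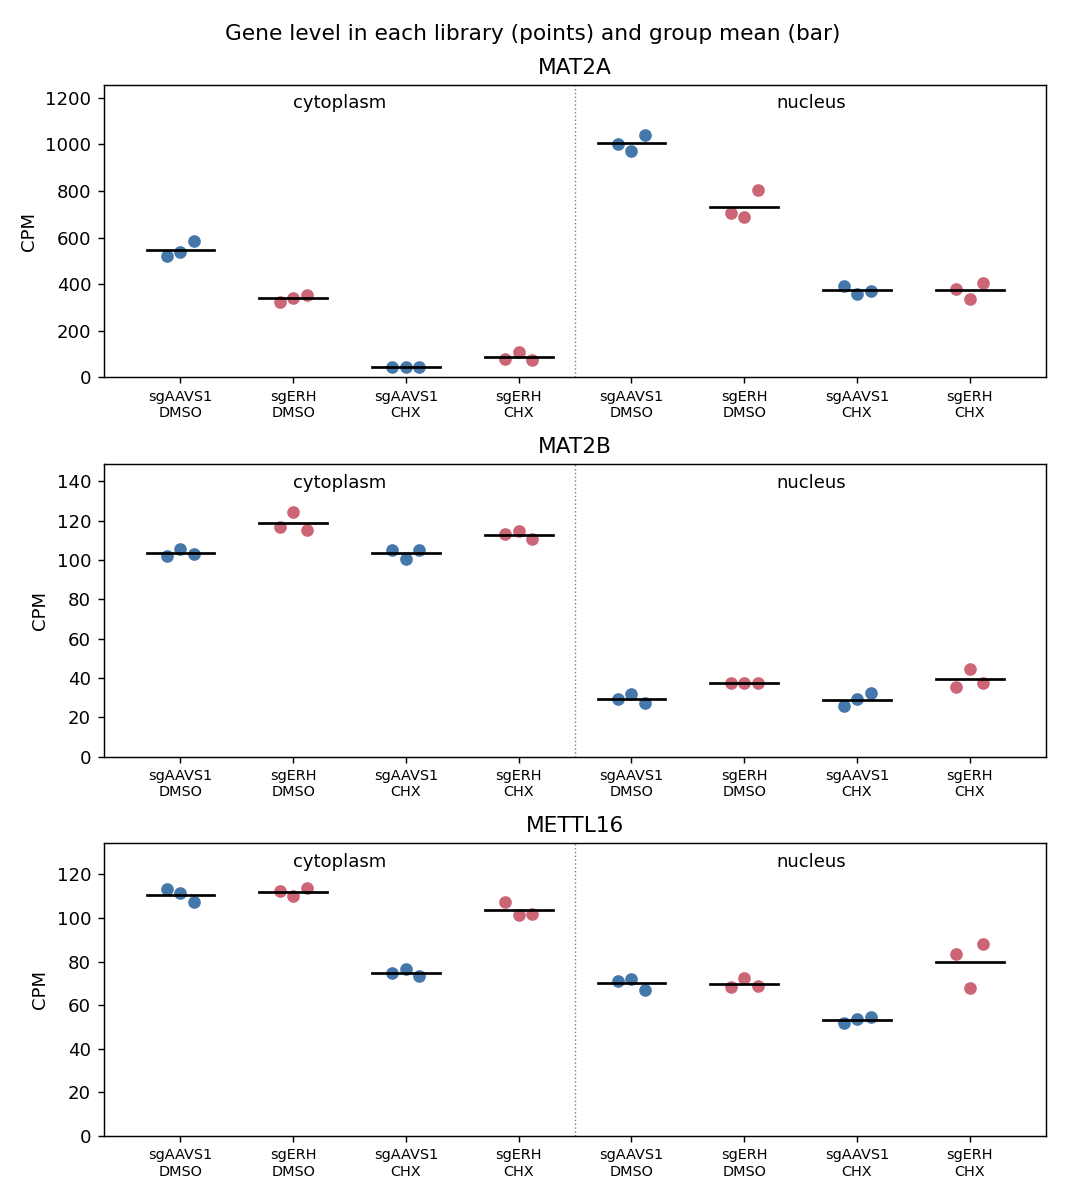
Level of MAT2A, MAT2B and METTL16 (CPM, linear axes from 0, scaled within each fraction) in each library of the 8 groups, with bars at the group means of 3 libraries. MAT2A fell from 549 to 43.8 CPM with CHX in control cytoplasm and from 1005 to 374 CPM in control nuclei, while no group mean of METTL16 lay outside 53.4 to 112 CPM.

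Nuclear MAT2A also fell with CHX in both guides, and with CHX the 2 guides met at the same level. Control nuclei held 1003, 971 and 1041 CPM with DMSO and 391, 360 and 371 CPM with CHX. The sgERH nuclei held 704, 690 and 803 CPM with DMSO and 381, 337 and 406 CPM with CHX. The guides did not overlap with DMSO and overlapped with CHX. The CHX change was -1.43 ± 0.08 in control nuclei (adjusted p = 6.01e-11), a call, where 25.2% of genes were called. It was -0.97 ± 0.08 in sgERH nuclei (adjusted p = 1.86e-08), under the limit for a call, where 14.8% were called, and just past it with an offset for transcript length (-1.01). The difference between these was 0.46 ± 0.11 (adjusted p = 0.00706), no call, where 3.62% of genes were called. The sgERH change itself was -0.46 ± 0.08 with DMSO (adjusted p = 0.000194) and 0.00 ± 0.08 with CHX (adjusted p = 0.983), neither of them a call, against 6.50% and 8.96% of genes called.

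**Figure D2:**
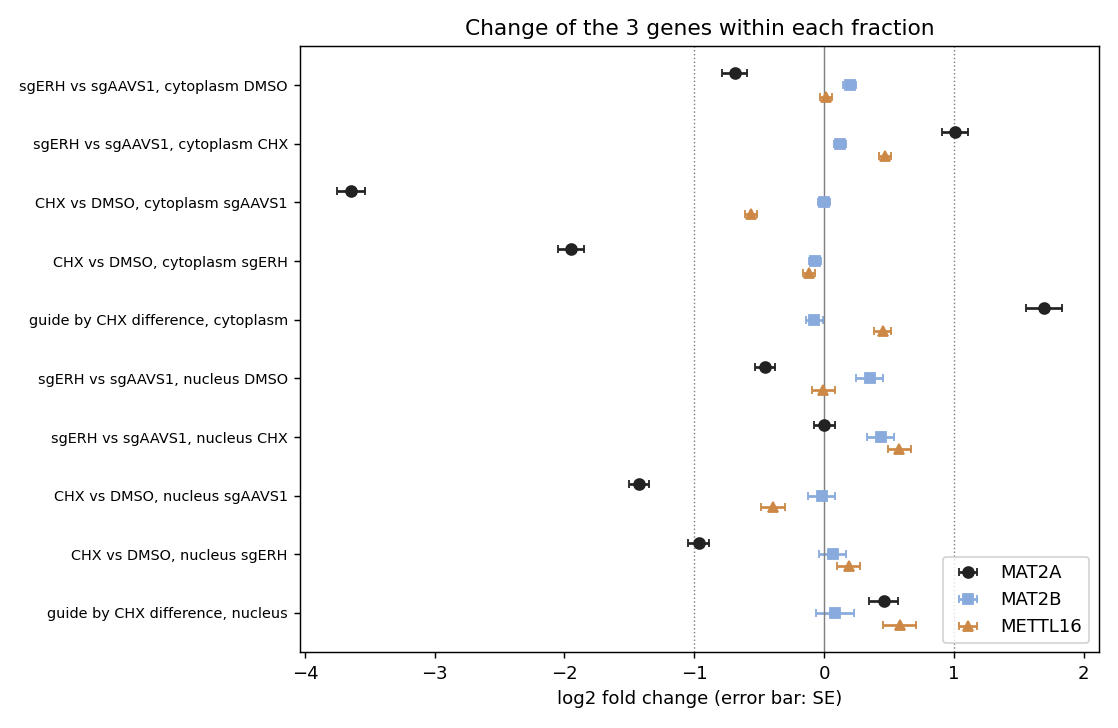
Log2 fold change and SE of the 3 genes in the 10 comparisons within a fraction. MAT2A spans from -3.65 to 1.70, while METTL16 stays between -0.57 and 0.58 and MAT2B between -0.07 and 0.44.

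MAT2A was higher in the nucleus than in the cytoplasm relative to each library's total, most of all with CHX. The log2 difference was 0.66 in control and 0.91 in sgERH cells with DMSO, both under the limit for a call, where 58.4% and 53.4% of genes were called. With CHX it was 2.81 in control and 1.89 in sgERH cells, both called, where 58.4% and 50.1% of genes were called. The guides differed in this by 0.25 ± 0.09 with DMSO (adjusted p = 0.0486) and by -0.92 ± 0.15 with CHX (adjusted p = 0.000253), neither past the limit for a call, where 5.73% and 6.83% of genes were called. The guide difference with DMSO was 0.20 to 0.26 over the edgeR and DESeq2 alternatives (adjusted p up to 0.107). With a library left out it was 0.17 to 0.30 in edgeR (adjusted p up to 0.126). The value of sgERH cells with DMSO passed the limit with RLE scaling (1.04) and with an offset for transcript length (1.12), and the guide difference with CHX passed it with that offset (-1.01). Each library was scaled on its own total, so these are relative levels and not amounts per cell.

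With all 24 libraries scaled together, the order of MAT2A levels was control nuclei with DMSO (957 ± 31.2 CPM), sgERH nuclei with DMSO (694 ± 61.5), control cytoplasm with DMSO (578 ± 37.5), sgERH cytoplasm with DMSO (364 ± 19.1), sgERH nuclei with CHX (352 ± 22.1), control nuclei with CHX (334 ± 11.9), sgERH cytoplasm with CHX (95.1 ± 19.8) and control cytoplasm with CHX (47.6 ± 0.978). Neighbours in this order overlapped only from the fourth to the sixth, and the highest group was 20.1-fold above the lowest. The same span was 4.90-fold for MAT2B and 2.51-fold for METTL16. The genes whose log2 CPM over the 8 group means correlated best with that of MAT2A, of 11202 genes that averaged 5 CPM or more, were the long non-coding RNA LINC00294 (Pearson r = 0.992), TBC1D2B (0.992), AK3 (0.984), GCN1 (0.982) and RIMS3 (0.982). For METTL16 r was -0.23 and for MAT2B it was -0.57. These values share the same 8 groups and describe the pattern only.

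Introns 6 and 7 of MAT2A were retained far more than most introns in the nucleus. The IR ratio is the share of intron depth in the total of intron depth plus spliced reads, so it runs from 0 to 1. In control nuclei with DMSO it was 0.391 for intron 6 and 0.373 for intron 7, against a median of 0.0786 over 125590 tested introns, of which 88.1% and 87.3% lay below them. Both introns are shorter than the median of 1624 bases and lower in GC than the median of 44.1%. The other measured introns of the canonical transcript were lower, at 0.128 for intron 1, 0.161 for intron 2 and 0.222 for intron 4.

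CHX raised retention of introns 6 and 7 in control nuclei, and in sgERH nuclei neither was called. In control nuclei the IR ratio of intron 6 was 0.387, 0.403 and 0.383 with DMSO and 0.614, 0.563 and 0.620 with CHX. In sgERH nuclei it was 0.375, 0.330 and 0.356 with DMSO and 0.327, 0.269 and 0.381 with CHX. All 3 control libraries with CHX stood above every other nuclear library, and the sgERH groups overlapped each other. The log2 change of intron depth relative to spliced reads with CHX was 1.22 ± 0.18 in control nuclei (adjusted p = 0.000347), where 10.3% of introns were called and the median of all introns was 0.00. It was -0.18 ± 0.18 in sgERH nuclei (adjusted p = 0.495), where 12.6% were called and the median was -0.57. The difference between the guides was -1.41 ± 0.25 (adjusted p = 0.0324), a call, where 0.308% of introns were called and the median was -0.59. That call was lost without any 1 of 9 of the 12 libraries (adjusted p from 0.0512 to 0.104), with limma on the log ratio (-1.41, adjusted p = 0.183) and with the library-wide shift in retention removed (-1.06, adjusted p = 0.0759).

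Intron 7 went the same way with a smaller difference between the guides. In control nuclei its IR ratio was 0.375, 0.385 and 0.360 with DMSO and 0.593, 0.544 and 0.609 with CHX. In sgERH nuclei it was 0.374, 0.398 and 0.383 with DMSO and 0.405, 0.454 and 0.433 with CHX. Every CHX library of a guide lay above every DMSO library of that guide, and the control libraries with CHX were again the highest. The CHX change was 1.23 ± 0.15 in control nuclei (adjusted p = 6.62e-05), a call, and 0.27 ± 0.15 in sgERH nuclei (adjusted p = 0.202), not called. The difference between guides was -0.95 ± 0.21 (adjusted p = 0.0653) and was not called. Over the edgeR and limma alternatives the sgERH change ran from 0.27 to 0.72 (adjusted p from 0.00469 to 0.431). The guide difference ran from -0.96 to -0.60, and neither was called in any of these. The median of all introns with CHX in sgERH nuclei was -0.57.

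With sgERH against control nuclei, no MAT2A intron was called with DMSO, where 4.65% of introns were called and the median of all introns was -0.38. The change was -0.23 ± 0.18 for intron 6 and 0.07 ± 0.14 for intron 7. With CHX it was -1.64 ± 0.18 for intron 6 (adjusted p = 3.90e-05), a call, and -0.88 ± 0.15 for intron 7 (adjusted p = 0.000708), under the limit for a call. There 20.5% of introns were called and the median over all introns was -0.96, so that intron 6 lay below the median and intron 7 close to it. The boundary reads of the whole library moved the same way between these groups (38.0 to 39.2 against 24.5 to 27.1 per 100 spliced reads), and with that library-wide shift removed intron 6 changed by -0.93 (adjusted p = 0.00142), no longer a call, and intron 7 by -0.18 (adjusted p = 0.524).

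**Figure D3:**
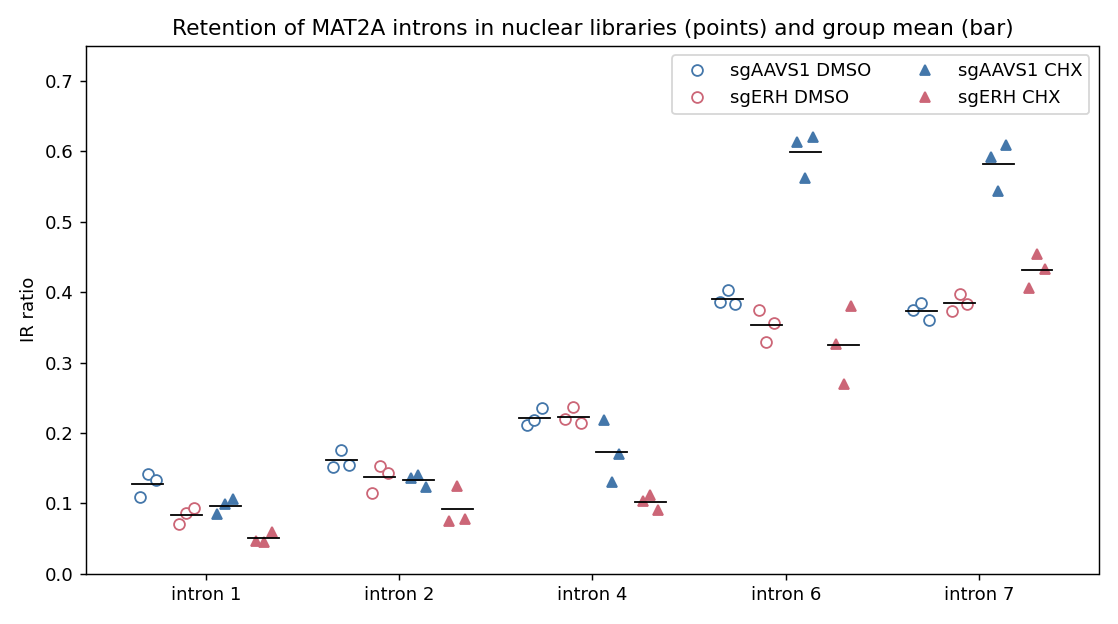
IR ratio of MAT2A introns 1, 2, 4, 6 and 7 in each nuclear library, with bars at the group means of 3 libraries. For introns 6 and 7 the control libraries with CHX, at 0.544 to 0.620, lie above all others, while for introns 1, 2 and 4 no group mean exceeds 0.223.

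The 5′ introns of MAT2A did not share the rise. With CHX in control nuclei, introns 1, 2 and 4 changed by -0.46, -0.32 and -0.45 on the log2 scale, none of them called. In sgERH nuclei intron 4 fell by 1.34 with CHX (SE 0.20, adjusted p = 0.000276), from an IR ratio of 0.223 to 0.102, and by 0.90 with the library-wide shift removed, which is no call. With sgERH in nuclei with CHX an intron that shares the acceptor of intron 1 (chr2:85540001-85541082) fell by 1.05 (SE 0.21, adjusted p = 0.00220), and its reads overlap those of intron 1, which fell short of the limit at -0.99. With the library-wide shift removed the overlapping intron changed by -0.36 (adjusted p = 0.330).

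Per 1e+07 spliced reads of a nuclear library, both terms of the ratio moved. In control nuclei the depth of intron 6 was 383 ± 5.82 with DMSO and 223 ± 10.3 with CHX, and its spliced reads were 598 ± 18.6 and 150 ± 15.3. In sgERH nuclei the depth was 260 ± 23.6 and 124 ± 39.0, and the spliced reads were 475 ± 24.8 and 251 ± 18.9. The depth was thus lower with CHX for both guides, and with CHX the spliced reads were higher in sgERH than in control nuclei while the depth was lower. For intron 7 the spliced reads were 613 ± 50.9 with DMSO and 171 ± 6.33 with CHX in control nuclei, and with CHX 225 ± 21.3 in sgERH nuclei.

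**Figure D4:**
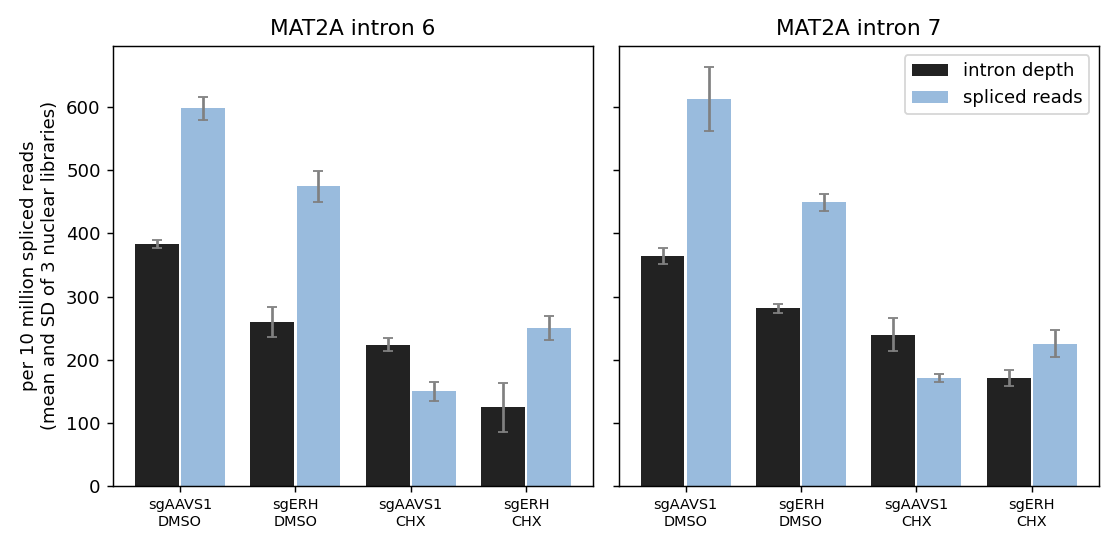
Intron depth (dark) and spliced reads (light) of MAT2A introns 6 and 7 per 1e+07 spliced reads of the library, mean and SD of 3 nuclear libraries per group. For intron 6 in control nuclei, CHX took the spliced reads from 598 to 150 and the depth from 383 to 223.

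In the cytoplasm these introns were nearly gone. The IR ratio of intron 7 was 0.0065, 0.00351 and 0.00235 in control cytoplasm with DMSO and 0.0537, 0.0522 and 0.0488 with CHX, without overlap. That was a log2 change of 3.70 ± 0.47 (adjusted p = 0.000282), a call, where 2.51% of introns were called. Per 1e+07 spliced reads its depth was 1.01 ± 0.495 with DMSO and 1.35 ± 0.169 with CHX. Its spliced reads were 249 ± 24.6 and 24.9 ± 3.52, so the ratio rose mainly as these fell. Intron 6 changed by 3.53 ± 0.48 (adjusted p = 0.000463), but its mean IR ratio with CHX, 0.0238, was under the minimum of 0.05 for a call. Its depth on that scale was 0.802 ± 0.435 and 0.903 ± 0.150, and its spliced reads were 373 ± 24.8 and 37.0 ± 0.613. With sgERH and DMSO the IR ratio of intron 6 was 0.0109 against 0.00211 in control cells, a log2 change of 2.34 ± 0.35 (adjusted p = 0.000998) that also missed that minimum, where 1.88% of introns were called and the median of all introns was 0.54. The 3 nuclear RNAs were higher between the same groups, 2 of them called, with a median log2 change of 1.06, and their part in this value was not tested. Depths of 4.56 to 11.9 in control cytoplasm with DMSO lie behind these ratios for intron 6, so they rest on few reads. The other comparisons in the cytoplasm called no MAT2A intron, where 0.899% of introns were called for sgERH with CHX, 1.27% for CHX in sgERH cells and 0.00812% for the difference between them.

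All 6 measured MAT2A introns were called higher in the nucleus than in the cytoplasm in each guide and treatment, where 60.7% and 55.3% of introns were called in control and sgERH cells with DMSO and 63.8% and 48.2% with CHX. The difference between nucleus and cytoplasm in intron 6 was smaller in sgERH than in control cells, by -2.57 ± 0.36 on the log2 scale with DMSO (adjusted p = 0.00412) and by -2.22 ± 0.45 with CHX (adjusted p = 0.0324), both calls, where 1.16% and 0.639% of introns were called. The median of all introns in these was -0.89 and -1.21. With DMSO, sgERH changed intron 6 by -0.23 within nuclei and by 2.34 within the cytoplasm. The DMSO difference thus lay mostly in the cytoplasm, on a depth of 0.802 in control and 2.99 in sgERH cells per 1e+07 spliced reads. The nuclear RNAs MALAT1, NEAT1 and KCNQ1OT1 were also higher in sgERH cytoplasm, and their part in it was not tested. With the library-wide shift removed both differences lost the call (-2.03, adjusted p = 0.0733, and -1.42, adjusted p = 0.473). The count of MAT2A introns called higher in the nucleus was then 6 of 6 in control and 5 of 6 in sgERH cells with DMSO, and 2 of 6 and 0 of 6 with CHX in edgeR, of which the last had 1 of 6 at an unadjusted p under 0.05.

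The annotated MAT2A transcripts also divided between the fractions. The canonical ENST00000306434 took 97.1% of MAT2A TPM in control cytoplasm with DMSO and 57.3% in control nuclei. The 2 transcripts that reach into the last intron took together 2.50 to 2.87% in control and 3.99 to 5.16% in sgERH cytoplasm with DMSO, and 10.0 to 11.9% and 8.24 to 10.6% with CHX. In nuclei they took 31.0 to 32.6% in control and 27.4 to 30.1% in sgERH cells with DMSO, and 34.9 to 36.2% and 23.9 to 30.4% with CHX. With CHX the 2 guides did not overlap in the nucleus, and they overlapped in the cytoplasm. In nuclei with CHX, ENST00000409017 alone took 18.5 to 19.1% in control and 17.5 to 19.7% in sgERH cells, which overlapped. ENST00000481412, which also holds intron 6, took 16.2 to 17.2% and 6.40 to 11.6%, without overlap. In control nuclei with DMSO these transcripts took 18.7 to 20.9% and 11.6 to 12.3%, so only ENST00000481412 had a higher share with CHX. These shares come from an estimated split of reads whose uncertainty the deposited values do not give.

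**Figure D5:**
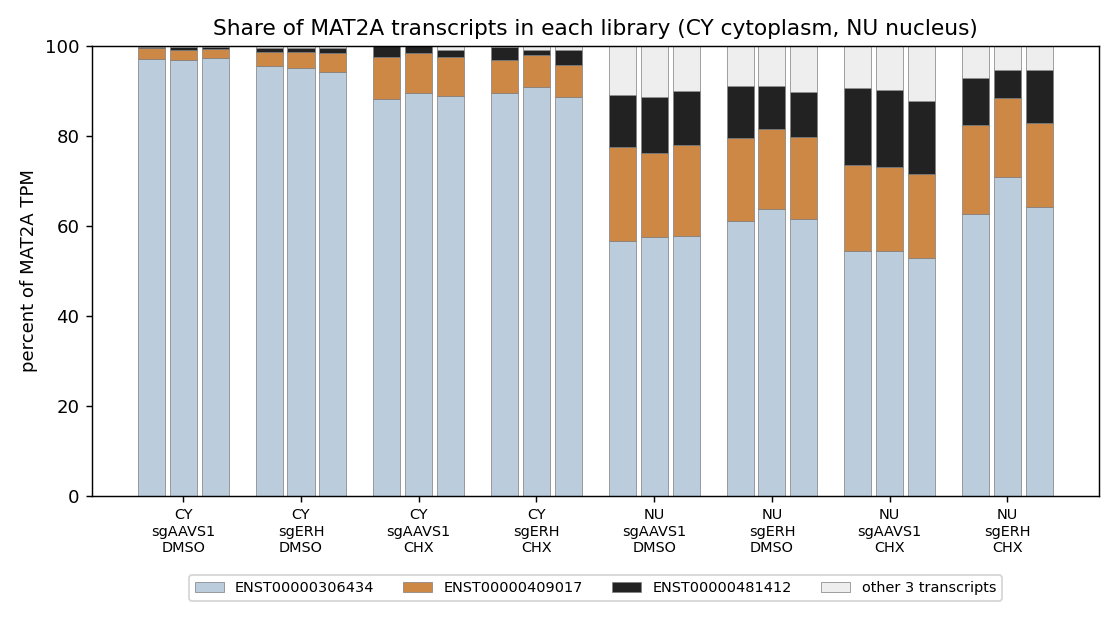
Share of MAT2A TPM taken by each transcript in every library, grouped by fraction (CY cytoplasm, NU nucleus), guide and treatment. The canonical transcript takes 97.1% in control cytoplasm with DMSO and 54.0% in control nuclei with CHX.

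In control cytoplasm CHX took the canonical transcript from 540 to 40.9 CPM, a log2 change of -3.72 ± 0.13 (adjusted p = 5.61e-08), where 12% of transcripts were called. ENST00000409017 went from 7.74 to 2.61 CPM, a change of -1.57 ± 0.18 (adjusted p = 0.000135), and ENST00000481412 from 1.03 to 0.360 CPM, a change of -1.51 ± 0.44 (adjusted p = 0.0341). All 3 were called, and whether these changes differ from each other was not tested. The call of ENST00000481412 was lost without a filter on low counts (adjusted p = 0.102), and that of ENST00000409017 with limma on log2(TPM + 1), at -0.97. In control nuclei the changes were -1.41 ± 0.07 for the canonical transcript, -1.41 ± 0.11 for ENST00000409017 and -0.83 ± 0.22 for ENST00000481412, of which the last was not called, where 13.4% of transcripts were called. In sgERH nuclei CHX called 4 of the 6 MAT2A transcripts lower, where 8.40% were called, and the canonical one, at -0.86 ± 0.07, was not among them. Of those 4, ENST00000465151, ENST00000481412 and ENST00000490878 each lost the call without some single libraries. With CHX in the cytoplasm the canonical transcript was higher in sgERH cells by 1.03 ± 0.12 (adjusted p = 0.000508), or 0.84 and no call without sgERH replicate 2. Its response to CHX differed between guides by 1.74 ± 0.17 (adjusted p = 0.000722), where 0.824% of transcripts were called, against 2.95% for the guides with CHX. Between fractions the canonical transcript differed by -0.21 on the log2 scale in control cells with DMSO, ENST00000409017 by 3.74 and ENST00000481412 by 5.37, where 56.3% of transcripts were called. With limma on log2(TPM + 1) the sign turned, to 1.31 higher in the nucleus. With CHX the excess of ENST00000481412 in the nucleus was smaller in sgERH than in control cells, by -2.19 ± 0.46 (adjusted p = 0.0267), where 2.49% of transcripts were called, a call lost without any 1 of 7 of the 12 libraries. ENST00000469221, a short form that holds intron 3, was lower in nuclei with CHX in sgERH than in control cells, by -1.20 on the log2 scale (SE 0.33, adjusted p = 0.0392), where 6.07% were called, and lost this call without any 1 of 5 of the 6 libraries.

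METTL16 (ENSG00000127804, chr17:2405562-2511891, minus strand), the methyltransferase itself, was lower with CHX in control cells, by more than in sgERH cells, and never reached the limit for a call. In the cytoplasm it was 113, 112 and 107 CPM in control cells with DMSO and 74.5, 76.4 and 73.4 CPM with CHX. In sgERH cytoplasm it was 112, 110 and 114 CPM with DMSO and 107, 101 and 102 CPM with CHX. The control libraries with CHX were the lowest, and in sgERH cells too each CHX library lay below each DMSO library. The CHX change was -0.57 in control cells (adjusted p = 1.56e-08) and -0.11 in sgERH cells (adjusted p = 0.0517), and the guides differed in it by 0.45 (adjusted p = 0.000104). In nuclei METTL16 was 71.3, 71.9 and 67.0 CPM in control cells with DMSO and 51.9, 53.8 and 54.4 CPM with CHX, while sgERH nuclei held 68.3, 72.2 and 69.0 CPM and 83.4, 67.6 and 88.1 CPM. There the guides differed in the CHX response by 0.58 (adjusted p = 0.00332), also under the limit. The nuclear level was below the cytoplasmic level in the 4 groups of guide and treatment, with log2 differences of -0.88 to -0.57, none of them a call. The canonical transcript ENST00000263092 was called lower in nuclei of control cells with DMSO (log2 -1.63 ± 0.08, adjusted p = 4.68e-08), but with limma on log2(TPM + 1) the difference was -0.10 and no call. In that comparison 1 of 6 tested METTL16 transcripts was called higher and 2 lower in the nucleus, and 3 and 4 of 18 for MAT2B. The guide differences between fractions with CHX of ENST00000574623 (METTL16) and ENST00000694954 (MAT2B) were called too, but each had a group with a mean count of 0, so no fold is given. Of its 10 introns 9 were tested in nuclei and 1 in the cytoplasm, and none was called within a fraction. Their nuclear IR ratios were at most 0.0855 in any group. Of its transcripts, ENST00000571332 rose with CHX in sgERH cytoplasm from 0.718 to 1.47 CPM (log2 1.04 ± 0.29, adjusted p = 0.0467), where 5.00% of transcripts were called. That call was lost without any 1 of the 6 libraries (adjusted p from 0.0736 to 0.167).

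MAT2B (ENSG00000038274, chr5:163503114-163519558, plus strand), the regulatory subunit, had no call within a fraction and was the only one of the 3 genes called lower in the nucleus than in the cytoplasm. Cytoplasmic means were 104 ± 1.83 and 119 ± 4.97 CPM in control and sgERH cells with DMSO, and 104 ± 2.76 and 113 ± 2.31 CPM with CHX. Nuclear means were 29.4 ± 2.22 and 37.5 ± 0.227 CPM with DMSO, and 29.0 ± 3.21 and 39.3 ± 4.72 CPM with CHX. In each fraction and treatment the sgERH libraries lay above the control libraries without overlap, by 0.12 to 0.44 on the log2 scale, with adjusted p from 0.00211 to 0.0407 and no call. The nuclear level was lower by 2.03 and 1.86 on the log2 scale in control and sgERH cells with DMSO and by 2.12 and 1.71 with CHX. CHX changed it by -0.07 to 0.07 in the 4 comparisons, with adjusted p of 0.222 or more.

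Of the 16 introns of MAT2B 14 were tested in nuclei and 6 in the cytoplasm. With sgERH in nuclei 2 of the 14 were called lower with DMSO, against 4.65% of all introns called, and 3 of the 14 with CHX, against 20.5%, so the count with CHX was close to that of all introns. The medians of all introns were -0.38 and -0.96. With DMSO intron 5 went from an IR ratio of 0.215 to 0.109 (log2 -1.15 ± 0.32, adjusted p = 0.0414) and intron 6 from 0.276 to 0.128 (log2 -1.39 ± 0.35, adjusted p = 0.0243). With CHX intron 2 went from 0.177 to 0.0654 (log2 -1.41 ± 0.48, adjusted p = 0.039), counted again in an overlapping intron (chr5:163512197-163513567) with the same reads, and intron 5 from 0.170 to 0.0744 (log2 -1.26 ± 0.34, adjusted p = 0.0127). Each rests on mean depths of 9.27 to 35.3 per library. With the library-wide shift removed none of these was called (-0.54 to -1.04), and each lost its call without at least 1 of the 6 libraries. CHX called no MAT2B intron in either fraction. Of the transcripts of MAT2B, ENST00000520449, annotated as a target of nonsense-mediated decay, rose in the cytoplasm from 0.0561 CPM to 0.653 CPM with sgERH and DMSO (log2 3.51 ± 0.99, adjusted p = 0.04) and to 0.678 CPM with CHX in control cells (log2 3.57 ± 0.99, adjusted p = 0.0267), where 5.88% and 12% of transcripts were called. The first of these calls was lost without any 1 of 5 of the 6 libraries and the second without any 1 of 4.

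Of 30 other genes of the methionine cycle and SAM use, 24 were tested in nuclei and 23 in the cytoplasm. CHX in control nuclei gave 3 calls up and 5 down, with a median log2 change of -0.28 against 0.01 over all genes, of which 25.2% were called. The amino acid transporter SLC43A2 rose from 10.4 to 47.7 CPM there (log2 2.20 ± 0.13). SHMT2, the mitochondrial serine hydroxymethyltransferase, fell from 232 to 86.9 CPM (log2 -1.42 ± 0.07). In control cytoplasm 3 were called up and 1 down, against 19.9% of all genes called, and the one that fell was the methionine-carrying transporter SLC7A5, from 207 to 40.0 CPM (log2 -2.38 ± 0.06). The sgERH comparisons called 1 of them higher in each fraction with DMSO, against 11.5% and 6.50% of all genes called, and none with CHX.

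Of 28 genes of m6A and U6 snRNA biology 27 were tested, and CHX in control nuclei gave 2 calls up and 2 down, with a median of -0.04, fewer than the 25.2% of all genes called. The m6A reader IGF2BP2 rose from 120 to 621 CPM (log2 2.37 ± 0.10) and the helicase and reader YTHDC2 from 138 to 354 CPM (log2 1.36 ± 0.07). METTL3, the catalytic subunit of the main m6A writer, fell from 239 to 92.8 CPM (log2 -1.37 ± 0.08), and METTL4, a methyltransferase of snRNA, fell from 19.5 to 7.35 CPM (log2 -1.40 ± 0.12). With sgERH 2 of the 27 were called lower in the cytoplasm with DMSO, against 11.5% of all genes, and none in the other 3 sgERH comparisons. A list of 12 genes of protein arginine methylation held 9 methyltransferases, which use SAM, and the PRMT5 partners WDR77, CLNS1A and RIOK1. All 12 were tested, and CHX in control nuclei gave 1 call up and 4 down, against 25.2% of all genes called, with a median of -0.50. CARM1 fell from 77.0 to 28.6 CPM there (log2 -1.43 ± 0.10), PRMT2 fell in control cytoplasm from 25.2 to 7.61 CPM (log2 -1.73 ± 0.08), and PRMT8 rose there from 0.391 to 1.13 CPM (log2 1.52 ± 0.39), all with adjusted p of 0.00253 or less. PRMT6 rose with sgERH in nuclei with CHX from 4.09 to 10.1 CPM (log2 1.31 ± 0.19).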

How the data were processed

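Poly(A) RNA libraries of RKO cells, 24 in 8 groups of fraction, guide and treatment with 3 libraries each, were used as deposited. The authors deposited expected counts and TPM values per transcript, which were made by the nf-core rnaseq pipeline with STAR and salmon against GRCh38; the submitters' processing notes name fastp 0.23.4, SAMtools 1.16.1 and bedtools 2.30.0. The authors also deposited transcript lengths in bases, and tables per library from IRFinder that hold the intron depth (a coverage signal), counts of spliced and boundary reads, and the IR ratio, a fraction. Whether strand was used in counting is not given in the sources used here.

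Expected counts were summed per gene and rounded. Genes, transcripts and introns were tested with the edgeR 4.0.16 quasi-likelihood F test in R 4.3.3, over all features, with Benjamini-Hochberg adjustment. Genes and transcripts were first filtered with filterByExpr (minimum count 10) and scaled by TMM. Introns had neither step, so the library-wide shift in retention stayed in their main values. Each fit held the 12 libraries of 1 fraction, or for comparisons between fractions the 12 of 1 treatment, with 1 coefficient per group. Nuclear and cytoplasmic libraries with the same number were not paired. Introns were tested as intron depth against spliced reads with 1 intercept per library, where depth plus spliced reads averaged at least 10 and the mean depth of a group at least 1. A call needed an adjusted p not above 0.05, a log2 fold change of 1 or more in size and, for introns, a mean IR ratio that reached 0.05 in the more retained group. SEs were taken as the size of the log2 fold change over the square root of F. Gene levels per library are TMM-scaled CPM. Alternatives used DESeq2 1.42.0 and limma 3.58.1, with pseudocounts of 1 and 0.1 on TPM and of 0.5 on intron and spliced reads. The scripts were tested on simulated data. No pair of libraries was identical (0 pairs).

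The members and gene lists were chosen with earlier results of these data known. The naming rule took the members, their tested introns and transcripts, ERH, up to 2 called genes per direction of each list with the largest change over the sgERH and CHX comparisons (1 of these is not reported here), and the 5 genes most like MAT2A in pattern. For MAT2B and METTL16, introns and transcripts without a call within a fraction are given as counts or left out.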

Additional observations from a re-analysis of the deposited data

Results flagged for a closer look

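The values here are differences between the guides in another contrast, each tested as an interaction term in edgeR over all features and listed where the adjusted p was at most 0.05. They were not weighed. For MAT2A the guides differed in the response to CHX by 1.70 ± 0.14 on the log2 scale in the cytoplasm (SE, adjusted p = 3.34e-07) and by 0.46 ± 0.11 in the nucleus (adjusted p = 0.00706), and in both the fall with CHX was smaller in sgERH cells. The difference of MAT2A between nucleus and cytoplasm was larger in sgERH cells by 0.25 ± 0.09 with DMSO (adjusted p = 0.0486) and smaller by -0.92 ± 0.15 with CHX (adjusted p = 0.000253). The adjusted p of the DMSO value did not stay under 0.05 in every alternative. The response of METTL16 to CHX differed by 0.45 ± 0.07 in the cytoplasm (adjusted p = 0.000104) and by 0.58 ± 0.13 in the nucleus (adjusted p = 0.00332). The difference of MAT2B between fractions with CHX was 0.41 ± 0.14 (adjusted p = 0.0319), with less of a deficit in the nucleus of sgERH cells.

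For retention of MAT2A intron 6 the guides differed in the response to CHX by -1.41 ± 0.25 in the nucleus (adjusted p = 0.0324). They differed in the gap between nucleus and cytoplasm by -2.57 ± 0.36 with DMSO (adjusted p = 0.00412) and by -2.22 ± 0.45 with CHX (adjusted p = 0.0324). The DMSO value lay mostly in the cytoplasm, where intron 6 had few reads. The canonical MAT2A transcript ENST00000306434 differed in its response to CHX by 1.74 ± 0.17 in the cytoplasm (adjusted p = 0.000722) and by 0.55 ± 0.10 in the nucleus (adjusted p = 0.0386), and in its gap between fractions with DMSO by 0.46 ± 0.10 (adjusted p = 0.0337). The canonical METTL16 transcript ENST00000263092 differed in its response to CHX in the cytoplasm by 0.47 ± 0.08 (adjusted p = 0.0137). ENST00000481412, the MAT2A transcript that holds intron 6, differed between fractions with CHX by -2.19 ± 0.46 (adjusted p = 0.0267).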

How the results depend on the processing

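Alternatives were edgeR with RLE scaling, without a filter or with an offset for transcript length, DESeq2 for genes, limma on log2(TPM + 1), log2(TPM + 0.1) or the log ratio of intron and spliced reads, boundary reads in place of intron depth, a stricter intron filter, removal of the library-wide shift in retention, only the groups compared, a replicate block, and leaving out each library. The causes of the changes below were not tested.

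The falls of MAT2A with CHX in the cytoplasm of both guides and in control nuclei, and the guide difference of the CHX response in the cytoplasm, kept their call in every alternative run for genes (RLE scaling, DESeq2, no filter, length offset, replicate block, single libraries left out, and for the falls only the groups compared). Values of MAT2A near the limit of 1 crossed it. The sgERH change in cytoplasm with CHX was 0.998 with DESeq2 and with RLE scaling, and 0.83 to 1.11 with a library left out. The CHX change in sgERH nuclei was -1.01 with the length offset, and -1.03 to -0.90 with a library left out, past the limit without sgERH CHX replicate 3 or sgERH DMSO replicate 2. The excess in sgERH nuclei with DMSO was 1.04 with DESeq2 and RLE scaling and 1.12 with the length offset. The guide difference between fractions with CHX was -1.01 with the length offset, and -1.01 to -0.73 with a library left out, the first of these without sgERH cytoplasm replicate 3. RLE scaling moved the median of all genes between fractions by 0.13 to 0.17.

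For intron 6 the guide difference of the CHX response in nuclei was -1.06 with the library-wide shift removed and -1.41 with limma, neither called, and -1.59 to -1.22 with a library left out. The sgERH change with CHX was -0.93 with the shift removed. For intron 7 the guide difference was -1.06 to -0.87 with a library left out, and called without sgERH CHX replicate 2. Changes of intron 6 that were not called turned sign with the shift removed, from -0.18 to 0.26 for CHX in sgERH nuclei and from -0.23 to 0.12 for sgERH with DMSO. With it the gap of intron 2 between fractions in control cells with CHX was -0.25, and with limma on TPM that of ENST00000306434 in control cells with DMSO was 1.31 with either pseudocount.

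Within a guide and treatment, the labels give the nuclear and cytoplasmic libraries of a replicate the same number, so they may come from the same cells. The fits did not pair them, and the replicate block joined equal replicate numbers over all groups of a fit. Between guides or treatments the replicate numbers were shared by label only. Same-numbered libraries deviated together at r of 0.0866 or less, and in 4 of 12 comparisons each library correlated best with its own number. With the replicate block the guide difference of intron 6 was -1.41 and no call of the MAT2A gene level or of introns 6 and 7 in nuclei changed. The block lowered the calls for that difference over all introns from 387 to 185, and over all transcripts from 455 to 282. It ended the calls of ENST00000481412 with CHX in control cytoplasm (adjusted p = 0.0719), of ENST00000490878 with CHX in nuclei (0.0521 and 0.0777) and of ENST00000571332 (0.0845).

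Counts of called genes stayed within 1.5 times in every alternative. For the guide difference of the CHX response in nuclei, 387 introns were called and 88 with the shift removed, 30 with limma and 188 with boundary reads. For sgERH in nuclei with CHX 25689 introns were called, 5176 with the shift removed and 15431 with boundary reads, and the share of higher ones went from 3.65% to 37.2% with the shift removed. With DMSO these were 5838, 3245 and 3690, and the share went from 25.9% to 69.6%. For CHX in sgERH nuclei they were 15828, 10237 and 10038, with shares of 12.2% and 43.0%. Between fractions the shift lowered 55965 to 74128 called introns to 20357 to 33005. Of the guide differences between fractions, 1392 introns with DMSO became 56 with the shift removed and 9269 with limma, and 743 with CHX became 0 in edgeR (5762 at an unadjusted p under 0.05), 10387 and, with boundary reads, 1208. Boundary reads lowered cytoplasmic calls from 1236 to 733 and from 625 to 299 for CHX, and from 928 to 589 and from 443 to 279 for sgERH. Limma on TPM moved the 586 transcripts of the guide difference in cytoplasm to 363, 2045 of that between fractions with CHX to 3614, 4179 for sgERH with DMSO to 2326, 3554 for CHX in sgERH cytoplasm to 6014 and 2101 for sgERH with CHX to 3233.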
